A study of Zea mays with 36 samples.

Results

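The genes described here are 150 maize root genes whose transcript levels were lower 30 min after nitrate was taken away and higher 30 min after it was given back. They were selected on root values in TPM (a gene's share of the transcripts of a library, scaled so that each library sums to 1000000), averaged as log2(TPM + 1) over 3 replicates at each time. A gene qualified with a mean of at least 5 TPM at any time, a fall of at least 0.5 between 0 and 0.5 h, a rise of at least 0.5 between 24 and 24.5 h, and no overlap between libraries in either interval. Of the 43459 genes in the root table, 168 qualified, and the 150 with the largest smaller change were taken. A set of 4 known nitrate assimilation genes (NR1, NR2, NIR1 and UPM2) had been left out by name. With both signs turned round, 67 genes met the same limits. The threshold fell within a continuum: the smaller change was 0.52 at ranks 148 to 150, held by members, and also 0.52, 0.51 and 0.51 at ranks 151 to 153, just outside. Because root libraries at 0, 0.5, 24 and 24.5 h chose the members, their values at those times are given as a description with no test.

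The plants were hydroponically grown seedlings of the inbred line B73. The NN group (normal nitrogen) was taken at 0 h. The ND group (N deprivation) was taken 0.5, 3 and 24 h later, and the NR group (N recovery) at 24.5 and 48 h. Root and leaf had 3 replicates per time, which gave 36 libraries. In the deprivation medium, nitrate salts of calcium and magnesium were exchanged for a chloride and a sulphate salt. Every plant carried the same unmodified genotype, each replicate pooled several plants, and root samples mixed seminal and crown roots. The methods place the 48 h sampling 24 h after resupply, although the label text can also be read as a later one. No plants kept on nitrate were sampled at later times. The withdrawal and resupply intervals ran at one clock time with opposite treatments, whereas 3 h fell later in its day.

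Nitrate taken up by roots is reduced to nitrite in the cytosol by nitrate reductase, and nitrite is reduced to ammonium in plastids by nitrite reductase. Nitrite reductase carries a siroheme cofactor and takes electrons from ferredoxin, which in root plastids is reduced with NADPH from the oxidative pentose phosphate pathway. In Arabidopsis, transcripts for these steps, and for some transcription factors of the LOB domain, NAC and TCP families, respond to nitrate within minutes, without the need for new protein.

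The libraries matched their tissue labels by LHCB5, PPDK2 and NAR2.1, which did not overlap between tissues. LHCB5, a light-harvesting protein, lay between 482 and 1423 TPM in leaf libraries and between 0 and 17.96 TPM in root libraries. NRT2.1 and NRT2.2, high-affinity nitrate transporters of roots, spanned 0.285 to 228 and 0.504 to 184 TPM in root and reached 2.36 and 1.59 TPM in leaf, so their ranges overlapped at the low end. NAR2.1, their partner protein, did not overlap, with 4.47 to 42.4 TPM in root and 0 to 0.461 TPM in leaf. NRT2.5 and PEPC6 did not separate the tissues: NRT2.5 stayed under 2.87 TPM in both, and PEPC6 spanned 56.1 to 102 TPM in root and 34.3 to 99.1 TPM in leaf. Root 48 h replicate 2 stood apart: its mean correlation with its own group was 0.952, below its 0.975 with 24 h replicate 3. The share of leaf RNA, estimated from 296 leaf-specific genes, was 0.157% to 1.31% in root libraries other than 24.5 h replicate 3, where it was 2.07%. At 24.5 h this RNA came to a median of 0.163% to 1.35% of a member's TPM, and it passed 10% for 3 members in replicate 3.

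Only 28 of the 150 members carried a symbol or a description in the tables of the study, and 122 had neither. The descriptions came from lists of genes that the study had called as changed, so the annotated members were not a neutral sample. The annotated members included 2 genes of nitrate reduction and its cofactors, 4 of reductant supply and respiratory or nitrogen oxide chemistry, 12 transcription regulators or organelle transcription factors, 3 ubiquitin ligases and 1 calcium-linked kinase.

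Over the 150 members, the median fall at 0.5 h was -0.72 on the log2 scale, with a range of -2.29 to -0.52. The median rise at 24.5 h was 0.76, with a range of 0.52 to 2.32. These sizes were fixed in part by the rule. Over all 26245 root genes with at least 1 TPM in at least 3 libraries, the medians were -0.08 and 0.12. The summed level of the members was 4974 to 5511 TPM in the 0 h libraries, 2872 to 2974 TPM at 0.5 h, 2621 to 3120 TPM at 3 h, 2470 to 2521 TPM at 24 h, 4565 to 4923 TPM at 24.5 h and 3297 to 4111 TPM at 48 h. None of the deprived libraries overlapped the NN or NR libraries in this sum. In whole root tissue, fewer cells that express a gene and less RNA per cell cannot be told apart.

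**Figure D1:**
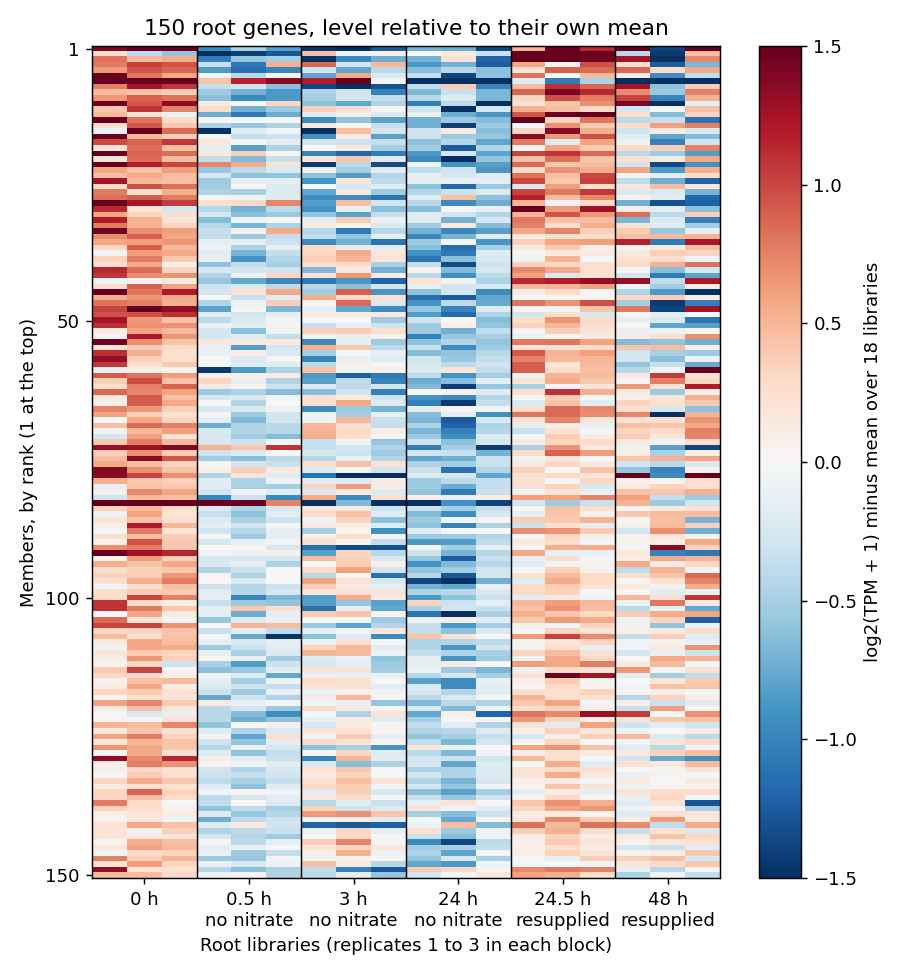
Levels of the 150 members (rows, by rank) in the 18 root libraries (columns, 3 replicates in each time block), as log2(TPM + 1) minus each member's mean over the libraries, with the colour scale cut at 1.5. The blocks at 0 h and 24.5 h are mostly red and those at 0.5 h and 24 h mostly blue, as the rule requires; 3 h and 48 h, which the rule did not use, are mixed.

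NIR2 (Zm00001eb255880), a ferredoxin-nitrite reductase, was the member of highest rank in the nitrate assimilation list. Its root levels were 71.2, 101 and 89.4 TPM at 0 h, 32.3, 33.7 and 26.7 TPM at 0.5 h, 15.7, 13.4 and 16.4 TPM at 3 h, 32.0, 55.2 and 20.6 TPM at 24 h, 58.6, 90.2 and 76.8 TPM at 24.5 h, and 101, 26.9 and 54.6 TPM at 48 h. The lowest levels were therefore those at 3 h, where no library overlapped any of 0.5 h. UPM1 (Zm00001eb358930), a uroporphyrinogen methyltransferase at the branch point to siroheme, had 25.1, 24.2 and 23.3 TPM at 0 h, 12.0, 10.5 and 9.31 TPM at 0.5 h, and 8.27 to 14.1 TPM at 3 and 24 h. It then had 33.4, 49.1 and 40.2 TPM at 24.5 h, above every 0 h library, and 29.8, 11.7 and 30.8 TPM at 48 h. UPM1 thus stayed near its 0.5 h level through deprivation, while NIR2 moved further down by 3 h.

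The member with the largest smaller change was Zm00001eb348290, described as ferredoxin-4, an electron carrier of plastids. Its levels were 21.0, 24.2 and 26.0 TPM at 0 h, 3.40, 5.09 and 3.75 TPM at 0.5 h, 2.07, 1.46 and 2.52 TPM at 3 h, 4.18, 4.04 and 2.27 TPM at 24 h, 10.96, 22.3 and 17.4 TPM at 24.5 h, and 25.7, 2.22 and 23.5 TPM at 48 h. In leaf it stayed at 1.34 TPM or less. Its deprived root libraries all lay below all NN and 24.5 h libraries, by 2.29 at withdrawal and 1.97 at resupply on the log2 scale.

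G6PD1 (Zm00001eb419510) is named as a glucose-6-phosphate dehydrogenase in one table of the study and as PGD4 in another; both names belong to NADPH-forming enzymes of the oxidative pentose phosphate pathway, and which applies was not settled here. Its root levels were 200.5, 204 and 211 TPM at 0 h, 107 to 122 TPM at 0.5 h, 61.4 to 81.0 TPM at 3 h, 72.0 to 130.2 TPM at 24 h, 170.2, 200.5 and 205 TPM at 24.5 h, and 298.0, 63.3 and 311 TPM at 48 h. Its mean was again lowest at 3 h, although 24 h replicate 3 and 48 h replicate 2 lay within the 3 h range. Non-symbiotic hemoglobin 1 (Zm00001eb293010), of a family that removes nitric oxide, had 136, 107 and 85.7 TPM at 0 h, 38.6, 59.4 and 46.2 TPM at 0.5 h, 24.2, 16.0 and 14.9 TPM at 3 h, 59.2 to 64.7 TPM at 24.5 h, and 157, 26.9 and 196 TPM at 48 h. Its first recovery was partial, since each 24.5 h library lay below each 0 h library. The remaining member of this group, the iron-sulfur subunit of succinate dehydrogenase (Zm00001eb069360), an enzyme of respiration, had 7.38 to 10.02 TPM at 0 h, 2.69 to 3.62 TPM at 0.5 h and 4.61 to 5.62 TPM at 24.5 h.

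**Figure D2:**
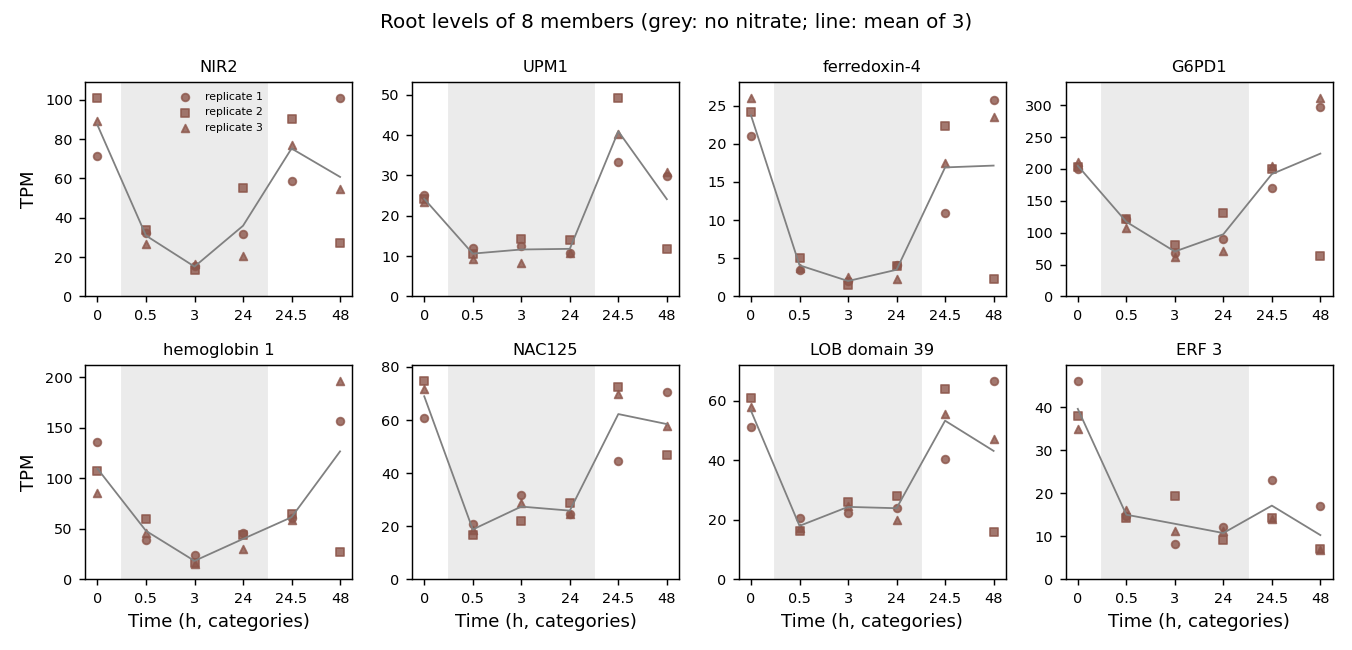
Root TPM of 8 members in each library at the 6 times (evenly spaced categories, in h); marker shapes give replicate numbers, lines join means of 3, and grey marks N deprivation. NIR2, ferredoxin-4, G6PD1 and hemoglobin 1 reach their lowest means at 3 h, and replicate 2 at 48 h lies far below replicates 1 and 3 in most panels.

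Clones of the upstream regions of 5 members (UPM1, NIR2, G6PD1, NAC4 and NAC125) were part of the promoter collection of the study, and the first 399 bases of each clone sequence were held here. The NIR2 clone is listed with the same primers as the clone of NIR1, so its identity, and with it the lack of a match there, was not settled. The motif was added after values had been seen. These ends were searched on both strands for the spaced core of the nitrate-responsive element, CTTNNNNNNNNNNAAG, which is known from nitrite reductase promoters of Arabidopsis and reads the same on either strand. It matched in 2 of the 5 member clones, UPM1 and G6PD1, and in 9 of the 95 clone ends (9.47%). The windows around both matches are shown, with the fixed letters of the core in capitals, 5′ to 3′ as listed in the clone table.
UPM1: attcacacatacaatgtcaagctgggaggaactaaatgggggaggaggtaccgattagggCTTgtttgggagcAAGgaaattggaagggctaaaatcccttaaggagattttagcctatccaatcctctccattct
G6PD1: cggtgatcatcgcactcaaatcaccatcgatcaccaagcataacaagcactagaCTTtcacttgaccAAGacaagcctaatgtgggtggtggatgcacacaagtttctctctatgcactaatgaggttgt
The windows cover clone bases 213 to 348 for UPM1 and 1 to 130 for G6PD1. None of the 5 member ends held the evening element AAAATATCT, the CCA1 site AAAAATCT, the G-box CACGTG or the heat shock element GAANNTTC, which occurred in 1, 9, 5 and 9 of the 95 ends. A match of letters is not a site, and the part of each clone nearest its gene was not searched.

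By their older identifiers, 8 of 9 members with symbols could be placed on the RefSeq annotation of Zm-B73-REFERENCE-NAM-5.0, the version 5 B73 genome to which the study aligned its reads. UPM1 lies at chr8:149732209-149735982 and G6PD1 at chr10:101506471-101512528. NAC125 lies at chr4:214323260-214325760, NAC4 at chr7:21757538-21759079, EREB13 at chr4:183372947-183374297 and ARF8 at chr3:94801593-94808215. MTERF11 lies at chr3:169228036-169229447 and MTERF5 at chr1:300812143-300813623. The members were thus spread over at least 6 chromosomes.

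The transcription regulators differed in how far they came back. NAC125 (Zm00001eb201290), a NAC domain factor, had 60.7, 74.6 and 71.5 TPM at 0 h, 20.9, 16.8 and 18.7 TPM at 0.5 h, 21.9 to 31.6 TPM at 3 and 24 h, 44.6, 72.5 and 69.7 TPM at 24.5 h, and 70.6, 47.0 and 57.9 TPM at 48 h. LOB domain-containing protein 39 (Zm00001eb051620), whose Arabidopsis counterpart is a nitrate-induced repressor of nitrogen genes, had 51.3, 60.8 and 57.8 TPM at 0 h, 20.5, 16.1 and 17.3 TPM at 0.5 h, 40.4, 64.0 and 55.6 TPM at 24.5 h, and 66.6, 15.8 and 47.1 TPM at 48 h. For both genes the 24.5 h libraries overlapped those of 0 h. Ethylene-responsive transcription factor 3 (Zm00001eb066890) had 46.1, 37.9 and 35.0 TPM at 0 h, 14.7, 14.3 and 16.1 TPM at 0.5 h, 9.06 to 12.1 TPM at 24 h and 23.2, 14.2 and 14.1 TPM at 24.5 h. Its resupplied libraries remained below every 0 h library.

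TCP9 (Zm00001eb037480), of a family linked to nitrate responses and growth in Arabidopsis, had 15.6 to 29.7 TPM at 0 h, 8.49 to 10.9 TPM at 0.5 h, 3.07 to 3.66 TPM at 3 h, 15.8 to 18.6 TPM at 24.5 h and only 4.18 to 6.02 TPM at 48 h. WRKY60 (Zm00001eb206730), a defence-linked factor, had 13.6 to 30.6 TPM at 0 h, 7.20 to 11.01 TPM at 0.5 h, 1.69 to 4.49 TPM at 3 h, 8.69 to 12.1 TPM at 24.5 h and 1.84 to 4.91 TPM at 48 h. The response of both to resupply was therefore brief: by 48 h each had levels within or near those of 24 h, which were 4.12 to 6.74 TPM for TCP9 and 2.90 to 5.91 TPM for WRKY60. EREB13 (Zm00001eb193550), an AP2-EREBP factor, was low, with 2.53 to 8.17 TPM at 0 h, 1.55 to 2.14 TPM at 0.5 h and 5.49 to 12.0 TPM at 24.5 h. NAC4 (Zm00001eb303620) had 12.9 to 16.4 TPM at 0 h, 7.66 to 9.75 TPM at 0.5 h and 12.1 to 19.0 TPM at 24.5 h. The Myb factor EFM (Zm00001eb058460), a flowering repressor in Arabidopsis, had 30.1 to 39.4 TPM at 0 h, 17.4 to 25.3 TPM at 0.5 h and 42.4 to 47.0 TPM at 24.5 h, above every 0 h library.

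Changes closer to the limit were found for ARF8 (Zm00001eb133000), an auxin response factor, and for MTERF11 (Zm00001eb143990) and MTERF5 (Zm00001eb062820), of a family that acts on transcription in organelles. Their falls were -0.53, -0.67 and -0.57 and their rises 0.67, 0.63 and 0.62 on the log2 scale. Topless-related protein 3 (Zm00001eb127680), a corepressor, was the only member above every 0 h library at 3 h, with 47.3 to 57.4 TPM at 3 h against 37.8 to 40.2 TPM at 0 h; it was singled out for this value.

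The other annotated members had descriptions that name no step of nitrogen assimilation. Among the ubiquitin ligases, the RING-H2 finger protein ATL2 (Zm00001eb374170) had 3.01 to 3.21 TPM at 0.5 h against 5.29 to 9.91 TPM at 0 h, and the U-box protein 16 (Zm00001eb290550) had 2.74 to 5.82 TPM at 0.5 h against 6.90 to 20.7 TPM at 0 h. CBL-interacting protein kinase 14 (Zm00001eb350770), of a kinase family that acts with calcium sensors, had 6.15, 11.6 and 6.77 TPM at 0.5 h against 24.2, 38.0 and 30.1 TPM at 0 h, and 11.7, 11.5 and 15.6 TPM at 24.5 h against 7.31, 5.27 and 9.81 TPM at 24 h. An AAA-ATPase (Zm00001eb220050) fell by 0.99 at withdrawal and rose by 0.72 at resupply. The MACPF protein NSL1 (Zm00001eb295470), which limits cell death in Arabidopsis, fell by 1.07 and rose by 0.86. ROOT PRIMORDIUM DEFECTIVE 1 (Zm00001eb405250) fell by 0.99 and rose by 0.79, and the VQ motif protein 4 (Zm00001eb293830), a WRKY partner of rank 149, fell by 1.09 and rose by 0.52. These falls and rises are differences of means on the log2 scale, and the rule required them.

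Within the nitrate assimilation list of 16 genes, 2 were members and 4 had been left out by name. Of the other 10, GOGAT1, a glutamate synthase, was the only one without overlap in both intervals in the directions of the rule, with changes of -0.45 and 0.54. GOGAT2 (-0.61 and 0.49) and RFNR, the root ferredoxin-NADP reductase (-0.70 and 0.63), fell without overlap but overlapped on resupply. The list's cytosolic glutamine synthetases GS1-1, GS1-3 and GS1-5 overlapped in both intervals. None of the 15 N transporter genes was a member.

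At 3 h and 48 h, which the rule did not use, members took separate paths. At 3 h, 81 of 150 members lay below every 0 h library and 1 above, against 18.7% and 16.4% of all root genes tested. Between 0.5 h and 3 h, 22 members (14.7%) moved lower without overlap and 50 (33.3%) moved higher, against 13.3% and 21.3% of all genes. The share that moved lower was thus near that of all genes. The 22 included ferredoxin-4, NIR2, TCP9, WRKY60, G6PD1 and hemoglobin 1, and the 50 included NAC125, LOB domain-containing protein 39, NSL1, ROOT PRIMORDIUM DEFECTIVE 1 and ARF8. The lowest mean fell at 24 h for 78 members, at 3 h for 31, at 0.5 h for 27 and, for the remaining 14, at 48 h. These counts compare groups that share libraries with the rule, so they are not independent of how members were chosen.

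The counts at 24, 24.5 and 48 h also share libraries with the rule, which favoured genes high at 0 h and low at 24 h. They are a description and are not independent of how members were chosen. At 24 h, 129 members lay below every 0 h library and 0 above, against 24.4% and 16.4% of all genes. At 24.5 h, 31 members still lay below every 0 h library and 13 lay above, against 15.9% and 23.8% of all genes. The 13 included UPM1, Myb EFM and ARF8, and the 31 included CBL-interacting protein kinase 14, hemoglobin 1, WRKY60 and ethylene-responsive factor 3. At 48 h, 64 members lay below every 0 h library and 1 above, against 15.9% and 15.2% of all genes. Against 24 h, 72 members were higher at 48 h in every library and 2 were lower, compared with 16.5% and 8.74% of all genes. After 30 min of nitrate 106 members overlapped the NN libraries, and at 48 h 85 did.

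Root 48 h replicate 2 differed from its group in several named members of different roles. NIR2, UPM1, ferredoxin-4, G6PD1, hemoglobin 1, LOB domain-containing protein 39 and CBL-interacting protein kinase 14 all had their lowest 48 h value there. Over the whole set the library stood apart less: it was the lowest of the 3 for 60 of 150 members, against 54 for replicate 1 and 36 for replicate 3. Without it, 96 members were higher at 48 h than in every 24 h library and 8 were lower, against 25.1% and 21.3% of all genes over the 2 remaining replicates. The 24 h libraries in this count were used by the rule.

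The root comparison of 48 h with 3 h sets groups that the rule did not use against each other, but its spread was estimated over all root libraries. These include the 12 that chose the members for no overlap between groups, so the adjusted p-values of members are not independent of the rule. The comparison sets roots a day after resupply against roots early in deprivation. The 48 h and 3 h samplings also differed in clock time and plant age, which cannot be told apart from nitrate status here. Fitted with limma on log2(TPM + 1) over all 18 root libraries, 12 of 150 members (8.00%) were called higher and 3 (2.00%) lower, with calls made at a Benjamini-Hochberg adjusted p below 0.05 and a change of over 1 on the log2 scale. Of all genes tested, 1.24% were called higher and 0.987% lower. With only the 48 h and 3 h libraries in the fit, 0 members were called in either direction, against 103 of all genes called higher and 76 lower. At an unadjusted p under 0.05, 29 members were then higher and 12 lower, against 9.31% and 9.49% of all genes. The fitted change was positive for 94 of 150 members, against 49.3% of all genes, and the median was 0.17, against 0.00 over all genes.

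Among the members called in the fit of all root libraries, NIR2 was higher by 1.75 ± 0.37 (log2, SE, adjusted p = 0.00990), with 101, 26.9 and 54.6 TPM at 48 h against 15.7, 13.4 and 16.4 TPM at 3 h. NAC125 was higher by 1.06 ± 0.19 (adjusted p = 0.00336) and hemoglobin 1 by 2.33 ± 0.50 (adjusted p = 0.00992). The TFIID subunit 2 (Zm00001eb099360), of the basal transcription machinery, and the osmotin-like protein OSM34 (Zm00001eb032520), of a stress-linked family, were higher by 1.01 and 1.02 and lay outside the naming rule. The TFIID call was lost without 48 h replicate 1 or 3 or 3 h replicate 1 or 3, and the OSM34 call without 48 h replicate 2 or 3 h replicate 1 or 3. Ferredoxin-4 was higher by 2.103 ± 0.56 (adjusted p = 0.0288), although its 48 h replicate 2, at 2.22 TPM, lay within the 3 h range. The ferredoxin call was lost without 48 h replicate 1 or 3 or 3 h replicate 1 or 2 (adjusted p = 0.0715 to 0.126), the hemoglobin call without 48 h replicate 1 (adjusted p = 0.0510), and the NAC125 fold was just under 1 without 48 h replicate 1 (0.92) or 3 h replicate 2 (0.91).

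Several members with a wide spread at 48 h were not called. G6PD1 was 1.36 ± 0.41 higher (adjusted p = 0.0510) and UPM1 0.91 ± 0.28 higher (adjusted p = 0.0529). LOB domain-containing protein 39 was 0.58 ± 0.34 higher (adjusted p = 0.306) and CBL-interacting protein kinase 14 was 0.84 ± 0.48 higher (adjusted p = 0.300). Without 48 h replicate 2 all these genes were called, with changes of 2.11 for G6PD1 (adjusted p = 1.67e-05), 1.34 for UPM1 (adjusted p = 0.000666), 1.17 for LOB domain-containing protein 39 (adjusted p = 0.00142) and 1.64 for the kinase (adjusted p = 0.00300). The count of members called higher was then 18, and without 48 h replicate 1 it was 7. The shares of all genes called in these refits are not given, and 1.24% is not their baseline.

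The 3 members called lower at 48 h carried no annotation and are named because the count was small. Zm00001eb034240 had 2.91, 0.830 and 1.93 TPM at 48 h against 26.1, 99.9 and 11.1 TPM at 3 h (change -3.54 ± 0.53, adjusted p = 0.00131). Zm00001eb058370 changed by -1.04 ± 0.25 (adjusted p = 0.0193) and Zm00001eb319850 by -1.22 ± 0.28 (adjusted p = 0.0153). These genes fell at 0.5 h and rose at 24.5 h like the rest but did not hold that rise. Of the 3, only Zm00001eb034240 was still called without 48 h replicate 2 (-3.25, adjusted p = 0.00275) or without 3 h replicate 2 (-2.72, adjusted p = 0.00283), and Zm00001eb058370 was also not called without 48 h replicate 3. Leaf RNA moved little with the calls of named genes, at no more than 1.45% of the 48 h TPM of any annotated member called higher, but came to 15.1% to 16.7% for 3 unannotated members that were called higher.

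In the list of nitrate assimilation genes, 4 of 14 tested were called higher at 48 h than at 3 h, namely NR2, RFNR, UPM2 and NIR2, and 0 were called lower. Among the 15 N transporters, 1 was called higher, NPF3.6, and 0 lower.

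The leaf libraries were also not used by the rule, and they give the levels of the root-chosen genes in another tissue. Root RNA in these libraries, described below, limits that reading. Of the 150 members, 138 had at least 1 TPM in at least 3 leaf libraries and were tested; the other 12, which included ferredoxin-4 and EREB13, were too low. Mean TPM was higher in root than in leaf for 90 members and higher in leaf for 60, and every leaf library was above every root library for 6. The tables were normalized separately, so levels were not tested between tissues.

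Few members passed the test in leaf within 30 min. At 0.5 h against 0 h, 1 of 138 members (0.725%) was called lower and 0 higher, against 0.769% and 1.79% of all 23268 leaf genes tested. At 24.5 h against 24 h, 0 members were called in either direction, with 0.00430% of all genes called lower and 0.0215% higher. At an unadjusted p under 0.05, 33 members were lower and 7 higher at withdrawal, and 37 were higher and 0 lower at resupply. The share of all leaf genes under this limit is not given, so these counts have no baseline.

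Small changes in leaf had the same signs as in root for most members. The fitted change at 0.5 h was negative for 108 of 138 members, against 45.2% of all genes, and at 24.5 h it was positive for 117 of 138, against 62.9% of all genes. The medians were -0.24 for members and 0.04 for all genes at withdrawal, and 0.26 for members and 0.09 for all genes at resupply. Both signs together, a lower mean at 0.5 h and a higher mean at 24.5 h, were seen for 94 members (68.1%), against 26.2% of all genes, and the reverse for 7 (5.07%), against 17.98%. Under median-of-ratios scaling, the counts were 113 and 105 of 138, against 52.1% and 50.7% of all genes.

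**Figure D3:**
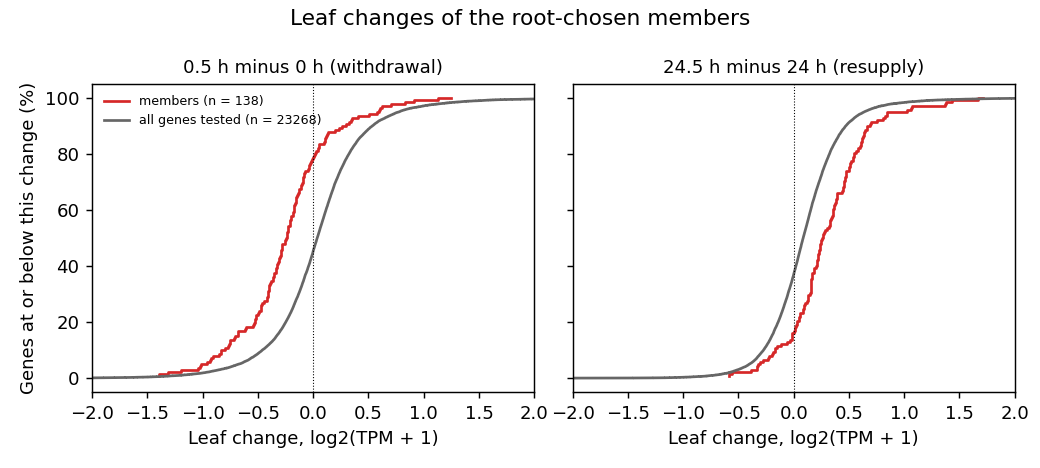
Cumulative share of genes (y, percent) at or below a given leaf change (x, difference of mean log2(TPM + 1)), for the 138 members tested in leaf (red) and all 23268 leaf genes tested (grey), at withdrawal (left) and resupply (right). The members lie to the left of all genes at withdrawal, with medians of -0.24 and 0.04, and to the right at resupply, with medians of 0.26 and 0.09.

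Without overlap between leaf libraries, 48 members were lower and 7 higher at 0.5 h, against 12.3% and 18.4% of all genes, and 31 were higher and 1 lower at 24.5 h, against 11.1% and 4.19%. Both a fall and a rise without overlap were seen for 12 members, against 1.00% of all genes. The only annotated gene among the 12 was CBL-interacting protein kinase 14, with 22.9, 34.2 and 64.4 TPM in leaf at 0.5 h against 73.8, 90.2 and 66.6 TPM at 0 h, and 21.0, 28.4 and 47.3 TPM at 24.5 h against 13.2, 16.4 and 6.22 TPM at 24 h. Its fitted leaf changes were -1.02 ± 0.50 (adjusted p = 0.261) and 1.38 ± 0.50 (adjusted p = 0.281), so neither was called.

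The difference between the leaf intervals was tested as an interaction, the change at resupply minus the change at withdrawal. It was called, with a fitted fall and then a rise, for 3 of 138 members, against 0.159% of all genes, and no member was called with a negative interaction, which 0.241% of all genes were, while 0.172% were called positive. The fitted interaction was positive for 119 of 138 members, against 54.5% of all genes, with medians of 0.51 and 0.04. The 3 genes had no annotation and are named for their small number. Zm00001eb024990 had 42.1, 49.4 and 41.3 TPM in leaf at 0.5 h against 83.3, 75.6 and 80.2 TPM at 0 h, and 60.6, 49.2 and 71.8 TPM at 24.5 h against 38.0, 31.6 and 30.5 TPM at 24 h; its interaction was 1.67 ± 0.25 (adjusted p = 0.00764). Zm00001eb265990 had an interaction of 1.31 ± 0.26 (adjusted p = 0.0422). Zm00001eb432920 had an interaction of 1.40 ± 0.29 (adjusted p = 0.0481) and was also the only member called lower at 0.5 h (-1.02 ± 0.21, adjusted p = 0.00938). The interaction was called for 6 members without 24.5 h replicate 3, and for 1 without 24 h replicate 2 or 3 or any library of 0 or 0.5 h. The fall of Zm00001eb432920 was not called without 0 h replicate 1 (-0.90, adjusted p = 0.0514), and 2 or 3 members were called lower without 0 h replicate 3 or any 0.5 h library.

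Root RNA in the leaf libraries moved with these comparisons, and its part in them was not tested. The share of root RNA, estimated from 118 root-specific genes, was 0.856% to 2.599% in leaf libraries at 24.5 h against 0.0896% to 0.238% at 24 h. It was 0.117% to 0.210% at 0.5 h against 0.172% to 2.97% at 0 h, where replicate 1 held the most. Of the root markers, NRT2.1 reached 0.607 to 2.36 TPM and NRT2.2 0.443 to 1.59 TPM in leaf at 24.5 h, with NRT2.1 listed at 0 in all 24 h leaf libraries and NRT2.2 at 0.0340 TPM or less there. NAR2.1 was listed at 0 in 15 of 18 leaf libraries, and NRT2.5 spanned 0.0300 to 1.39 TPM with its highest value at 24 h. In the 24.5 h leaf libraries, root RNA came to a median of 1.04% to 3.82% of a member's leaf TPM. This median does not bound single members, and the largest share of a member is not given. Zm00001eb313410, among the members with both a fall and a rise in leaf without overlap, had means of 60.3 to 211 TPM in root. Its leaf means were 0 TPM at 24 h and 2.67 TPM at 24.5 h, and the part of root RNA in this was not tested.

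For the 60 members with more TPM in leaf than in root, 50 had a lower mean at 0.5 h than at 0 h (median -0.31) and 57 a higher mean at 24.5 h than at 24 h (median 0.39). The shares over all leaf genes tested, whatever their level in root, were 45.2% and 62.9%. The shares over all genes with more TPM in leaf than in root are not given. Without leaf 0 h replicate 1, 101 of 138 members had a lower mean at 0.5 h, against 41.3% of all genes. With replicate 2, the library with the least root RNA at 24.5 h, as the only one of its group, 104 of 138 members were higher than the mean of 24 h, against 62.1% of all genes. Leaf replicates also grouped poorly: all libraries of 24.5 and 48 h, and replicates 1 and 3 of 0.5 h, correlated better with a library of another time than with their own group, and the part of this in both intervals was not tested.

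After 3 h without nitrate, more members were called in leaf. At 3 h against 0 h, 13 of 138 members (9.42%) were called lower and 2 (1.45%) higher, against 5.17% and 8.55% of all genes tested. The medians were -0.07 for members and 0.19 for all genes. Scaling by median of ratios brought the median of all genes to 0.00 and called 19 members lower. The share of all genes called lower under that scaling is not given, and 5.17% is not its baseline. The 3 h and 0 h samplings also differed in clock time, which cannot be told apart from nitrate withdrawal here.

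CBL-interacting protein kinase 14 had the largest leaf change, with 6.66, 1.98 and 9.93 TPM at 3 h against 73.8, 90.2 and 66.6 TPM at 0 h (-3.62 ± 0.50, adjusted p = 4.72e-05). LOB domain-containing protein 39 had 5.40, 6.52 and 5.26 TPM at 3 h against 23.5, 18.1 and 17.2 TPM at 0 h (-1.60 ± 0.26, adjusted p = 0.000209). The AAA-ATPase had 2.66, 2.05 and 2.40 TPM at 3 h against 8.58, 9.65 and 9.52 TPM at 0 h (-1.61 ± 0.22, adjusted p = 4.52e-05). All 3 genes fell without overlap between libraries, as they had in root.

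UPM1 had 2.35, 3.11 and 4.97 TPM in leaf at 3 h against 11.2, 8.97 and 7.91 TPM at 0 h (-1.24 ± 0.31, adjusted p = 0.00532). Ethylene-responsive transcription factor 3 was also lower at 3 h (-1.30 ± 0.27, adjusted p = 0.00168). With a pseudocount of 5 the folds of UPM1 (-0.77), ethylene-responsive factor 3 (-0.96) and the AAA-ATPase (-0.95) were under the limit. NIR2 changed by -1.06 ± 0.45 and was not called (adjusted p = 0.0807); it was called under median-of-ratios scaling (-1.27, adjusted p = 0.0337), quantile normalization (-1.30, adjusted p = 0.0323) or with only these 2 groups in the fit (adjusted p = 0.0320). NAC125 changed by -0.86 ± 0.31 (adjusted p = 0.0439), under the fold limit, and was called under both scalings (-1.09 and -1.08). In the nitrate assimilation list, 4 of 14 genes tested were called lower at 3 h in leaf (NR1, NIR1, UPM1 and UPM2) and 0 higher; at 0.5 h, 2 were called lower, NR1 and NIR1. Of the 10 N transporters tested, 4 were called lower at 3 h and 3 at 0.5 h, and 0 higher.

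ARF8 went the other way in leaf. It had 26.8, 28.3 and 27.8 TPM at 3 h against 8.29, 8.50 and 9.83 TPM at 0 h (1.54 ± 0.17, adjusted p = 6.91e-06), while in root it had 4.90 to 6.11 TPM at 3 h against 5.42 to 6.54 TPM at 0 h. At 0.5 h its leaf libraries, at 11.6, 15.3 and 16.1 TPM, were already above those of 0 h (0.63 ± 0.17, adjusted p = 0.0423), a change under the fold limit.

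**Figure D4:**
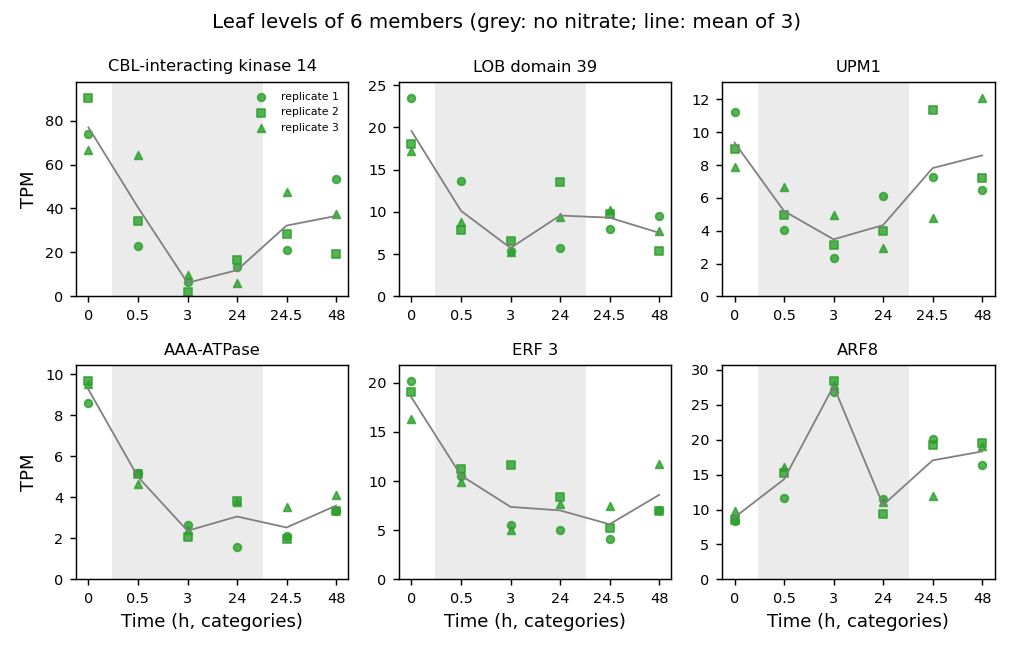
Leaf TPM of 6 members in each library at the 6 times (evenly spaced categories, in h); marker shapes give replicate numbers, lines join means of 3, and grey marks N deprivation. CBL-interacting protein kinase 14, LOB domain-containing protein 39, UPM1 and the AAA-ATPase have their lowest means at 3 h; ethylene-responsive factor 3 stays low through 24.5 h, and ARF8 peaks at 3 h with 26.8 to 28.3 TPM.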

How the data were processed

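Leaf and root libraries were deposited as TPM values, 1 table per tissue with 43459 genes. According to the methods and processing notes of the authors, reads were aligned with STAR to the B73 genome and TPM was made with StringTie; the labels list Trimmomatic, whereas the methods state no trimming for maize. Read depth is not given by TPM. The sources also differ on nutrient solution, library kit, sequencer and plants per pool. Replicates are biological per the labels.

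Values were used as log2(TPM + 1), so changes of low genes are understated. limma 3.58.1 (R 4.3.3, trend, two-sided) was fitted per tissue over 18 libraries with a coefficient per time and no block, so that all times share an estimate of the spread, on genes with at least 1 TPM in at least 3 libraries, and p-values were adjusted over all genes tested. The authors used DESeq2 on counts, which were not used here. In a simulated set of 23268 genes, the fit was tested on known changes, and the outcome is not given here. Those changes were larger than the median leaf changes of members, and the noise was independent between libraries. Recovery of small changes was not tested. Same-numbered replicates deviated together little at most (r from -0.148 to 0.224), so they were not paired. The highest values were those of number 2, at 0.142, 0.224 and 0.181, while in leaf at 24.5 h against 24 h it had -0.148.

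Members, gene lists and tests were chosen with earlier results of these data known. Named genes are annotated members with a symbol, of high rank, level or significance, or leading their role class; exceptions are stated. Neighbouring members Zm00001eb152770 and Zm00001eb152780 correlated at 0.97 over 18 libraries and may share reads. Alternatives covered pseudocount, filter, scaling, samples in the fit, replicate block and each library left out.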

Additional observations from a re-analysis of the deposited data

Results flagged for a closer look

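ARF8 (Zm00001eb133000) moved oppositely in the 2 tissues at withdrawal: every leaf library at 0.5 h lay above every leaf library at 0 h (0.63 on the log2 scale), while every root library at 0.5 h lay below every root library at 0 h. The root direction was required of the members, and the difference between tissues was not tested, since the tables were normalized separately. Leaf libraries of 6 other members, none annotated, were likewise all higher at 0.5 h, and those of 1 member were all lower at 24.5 h than at 24 h.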

How the results depend on the processing

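The number of genes that met the membership limits, 168, was 66 with a pseudocount of 5, 83 after scaling by median of ratios, 75 after quantile normalization, and 158 to 249 with 1 library left out. All 66, 81 of the 83 and 73 of the 75 were members. The median of all genes moved by -0.08 at withdrawal and 0.12 at resupply in root, and by 0.19 at 3 h in leaf, and was near 0 under either scaling. In leaf at 0.5 h, the count called lower was 0 with a pseudocount of 5 or a mean of at least 5 TPM, 2 under median-of-ratios scaling, 6 by adjusted p alone and 0 to 3 with 1 library left out. At 24.5 h in leaf, members called higher were 0 to 2 with 1 library left out. The leaf interaction count was 1 with a pseudocount of 5 or with only the groups compared, and 1 to 6 with 1 library left out. At 3 h in leaf, members called lower were 6 with a pseudocount of 5, 21 by adjusted p alone and 12 to 15 with 1 library left out. In root at 48 h against 3 h, members called higher were 7 with a pseudocount of 5, 0 with only the groups compared, 19 by adjusted p alone and 7 to 18 with 1 library left out; those called lower were 1, 0, 7 and 1 to 4. With 1 library left out, the fitted directions held for 101 to 113 members at 0.5 h, 106 to 115 at 24.5 h, 116 to 122 for the interaction and 82 to 104 in root. The replicate block gave 2 interaction calls in place of 3 and left the other counts at 1, 0, 13, 12 and 3. Apart from the root fit with only the groups compared, the shares of all genes called under these alternatives are not given. The counts of members called therefore have no baseline there, and the shares under the main limits do not serve as one. The causes of these changes were not tested. Among alternatives for named genes, 1564 kept the call, 12 gained and 15 lost one, and 0 changed direction with a call. Depth is unknown, so no limit on low values can be set from counting.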
